A study of Arabidopsis thaliana with 14 samples.

Results

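The kinase YODA (YDA) heads a MAP kinase cascade of Arabidopsis, and the results below concern the genes whose transcripts responded differently to a gain and to a loss of its activity in seedlings. For every probe set, the change in seedlings carrying NdelYDA, an N-terminal deletion form of YDA, against Ler was compared with the change in yda seedlings against C24. The second change was subtracted from the first, so a difference above 0 marks a transcript that was higher, relative to its own control, in NdelYDA than in yda. Every one of the 14 arrays of the series entered this difference, and 17210 of the 22810 probe sets on the array had enough signal to be tested. Values are linear intensities of 1-colour arrays, and changes are given as log2(intensity + 16), a scale that understates the change of weakly detected genes.

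The samples were 4 biological replicates of seedlings with the N-terminal deletion of YDA (NB89 in the labels), 3 samples of the Ler ecotype as their control, 4 biological replicates of yda seedlings, and 3 samples of the control line CS9159 in the C24 ecotype. All were total RNA of whole seedlings at 7 dpg. The labels of NdelYDA replicates 1 and 4 name the Ler ecotype and the absence of stomata, and those of replicates 2 and 3 name neither. No label gives the promoter that drives NdelYDA, the allele of yda or the ecotype in which yda was kept, so the pairing of yda with C24 is an assumption of the comparison. The control labels hold only a number, so p-values rest on the scatter among the deposited samples, part of which may be technical. YDA transcript was not analysed here.

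As a MAP kinase kinase kinase, YDA starts a cascade that restrains entry of leaf epidermal cells into the stomatal lineage. Among the targets of this cascade is SPEECHLESS (SPCH), a bHLH factor that starts the lineage and is destabilised when the kinases phosphorylate it. Plants without YDA form excess and clustered stomata, and plants with a constitutively active, N-terminally truncated YDA form an epidermis with few or none. The same cascade guides the elongation of the zygote and the patterning of the embryo, and its lower tiers are shared with immune signalling.

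Of the 17210 probe sets, 5753 (33.4%) had a called difference, meaning a limma adjusted p under 0.05. Of these, 3034 (17.6%) were higher in NdelYDA than in yda relative to the controls and 2719 (15.8%) were lower, and 1321 (7.68%) differed by a fold of at least 2. NdelYDA minus Ler was called for 32% of probe sets (15.4% higher, 16.6% lower) and yda minus C24 for 43.4% (19.1% higher, 24.4% lower). Reversed effects, with both mutants called in opposite directions, made up 1067 probe sets (6.2%). In 397 of them (2.31%) NdelYDA was lower and yda higher, and in 670 (3.89%) NdelYDA was higher and yda lower. When each array was scaled to the same median, these became 477 and 562, and the higher and lower differences became 2604 and 3304. Effects called in one mutant only made up 3760 probe sets (21.8%), with 650 higher and 647 lower in NdelYDA (3.78% and 3.76%), and 1122 higher and 1341 lower in yda (6.52% and 7.79%). The last pair became 1498 and 1059 under that scaling. The uncalled mutant had a 95% interval inside a 1.5-fold change either way in 560 and 537 of the NdelYDA classes and in 1000 and 1202 of the yda classes. A further 690 (4.01%) moved in the same direction by unequal amounts, and 236 (1.37%) had a called difference with neither mutant called.

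The controls enter the difference, and their own contrast was large, with Ler minus C24 called for 37.2% of probe sets (21% higher, 16.2% lower). It was also called for 2765 of the 5753 probe sets with a called difference, a share of 48.1%, and for 45.8% and 60.9% of the reversed classes with NdelYDA lower and NdelYDA higher. At the 62 probe sets where Ler and C24 differed by at least 3 log2 units, NdelYDA lay nearer Ler at 51 and yda lay nearer C24 at 60. At the 11 others NdelYDA lay nearer C24, and the effect of YDA and of the background cannot be told apart there. GAPDH probe sets at the 3′ and 5′ ends, whose ratio tracks RNA quality, gave ratios of 0.992 to 1.21 in NdelYDA against 1.05 to 1.11 in Ler, and 0.789 to 0.945 in yda against 1.02 to 1.46 in C24. The highest of these was C24 replicate 1, and without this array 5742 differences were called and 1073 of them were reversed. The part of the GAPDH ratio in the results was not tested.

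**Figure D1:**
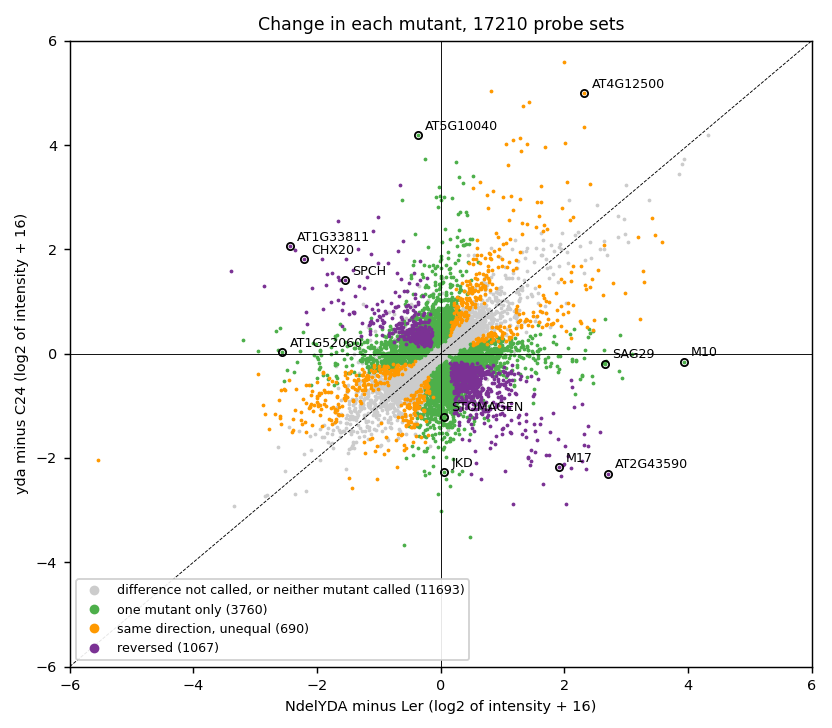
Change in NdelYDA against Ler (horizontal axis) and in yda against C24 (vertical axis), both in log2(intensity + 16), for the 17210 tested probe sets, coloured by how their difference was called, with the dashed line marking equal change. Reversed probe sets (1067) fill the upper left and lower right, effects in one mutant only (3760) lie along the axes, and the circled genes are those described in the text.

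Of 23 stomatal lineage and 19 guard cell loci listed, only 4 and 5 were tested. Of these, 2 and 3 were reversed, with less transcript in NdelYDA and more in yda. Of the 5 guard cell genes, 4 had a lower difference, 3 of them by reversal and 1 through yda alone, and the median difference was -2.57. Among all 9416 genes taken with 1 probe set each, 31.4% had a called difference (15.3% lower, 16.1% higher), 2.23% were reversed in this direction, and the median was -0.01. Of the 4 stomatal lineage regulators, SPCH and FAMA were reversed, STOMAGEN changed in yda alone and ATBRXL2 was not called. ATBRXL2 and the uncalled guard cell gene, AT5G06970 (difference -0.21), are named after their values were seen. In whole seedlings, fewer cells of a type and less RNA per cell cannot be told apart.

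SPCH was at 32.2, 25.9, 20 and 50.9 in NdelYDA seedlings, against 103.4, 139.7 and 123.1 in Ler. Its values were 90.5, 75, 89.7 and 125.2 in yda seedlings, against 15.5, 23.6 and 41 in C24. Neither mutant overlapped its own control, although SPCH was also higher in Ler than in C24 by 1.73 (adjusted p = 6.59e-05), and most of these values lie near or below the array's 30th percentile (75.1 to 85.75). The difference was -2.95 (SE 0.34, adjusted p = 7.37e-06), made of -1.55 in NdelYDA and 1.40 in yda. FAMA, listed as FMA in the gene table, is the bHLH factor that sets guard cell identity, and it was at 84.7, 71, 98.6 and 86.2 in NdelYDA seedlings, against 261.3, 252.6 and 248.6 in Ler. The same gene stood at 305, 292.8, 363.8 and 364.4 in yda seedlings, against 133, 204.2 and 222.6 in C24, and again no array of a mutant lay within the range of its control. Its difference was -2.23 (SE 0.21, adjusted p = 1.07e-06).

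CHX20, a cation/proton exchanger of guard cells, was at 12.3, 38.3, 15.3 and 5.1 in NdelYDA seedlings, against 181.8, 84.7 and 145.5 in Ler. Signals were 74.2, 82.4, 46.6 and 80.3 in yda seedlings, against 4.3, 11.5 and 10 in C24, so the C24 control was near the lower end of detection while Ler was not. The CHX20 difference was -4.03 (SE 0.43, adjusted p = 3.64e-06), beside a control difference, Ler minus C24, of 2.60. AT1G22690, whose promoter is widely used as a guard cell marker, was at 378.5, 355.5, 379.5 and 273.8 in NdelYDA seedlings, against 2682, 2516 and 2591 in Ler. The replicates labelled as without stomata (378.5 and 273.8) and the other NdelYDA replicates (355.5 and 379.5) overlapped, and all were well above 0. It was at 4646, 5092, 4647 and 5085 in yda seedlings, against 1369, 2013 and 2723 in C24, and the difference was -4.16 (SE 0.23, adjusted p = 4.48e-09) with no called control difference (adjusted p = 0.0795). AT4G14480, a protein kinase of guard cells, was reversed by -2.57 (SE 0.21), with -1.59 in NdelYDA and 0.98 in yda.

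The other called genes of these lists changed in yda alone. AT2G16630, needed for the stomatal outer ledge, was at 1490.3, 1412, 1372 and 1203 in yda seedlings, against 271.8, 505.5 and 569.2 in C24, a change of 1.64 (SE 0.17). In NdelYDA it changed by 0.15 (SE 0.17), which was not called, with 468.4, 389.6, 457.8 and 451.4 in NdelYDA seedlings, against 405.4, 400.8 and 384.4 in Ler. STOMAGEN, a secreted peptide made in the mesophyll that promotes stomatal development, was at 332.7, 448.2, 395.2 and 412.3 in yda seedlings, against 1316, 880 and 707.4 in C24. All 4 yda arrays lay below all 3 C24 arrays, whereas NdelYDA arrays overlapped Ler, with 953.5, 1071, 936.5 and 1015 in NdelYDA seedlings, against 994, 918.9 and 946.7 in Ler. The STOMAGEN difference was 1.27 (SE 0.21, adjusted p = 2.36e-04), the opposite sign to SPCH and FAMA. Without C24 replicate 1 the guard cell median was -2.37 and the same numbers of genes were reversed in both lists. With each mutant set against the other control, 2 guard cell genes and 1 lineage regulator were reversed. That setting brings the Ler minus C24 contrast into each change.

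**Figure D2:**
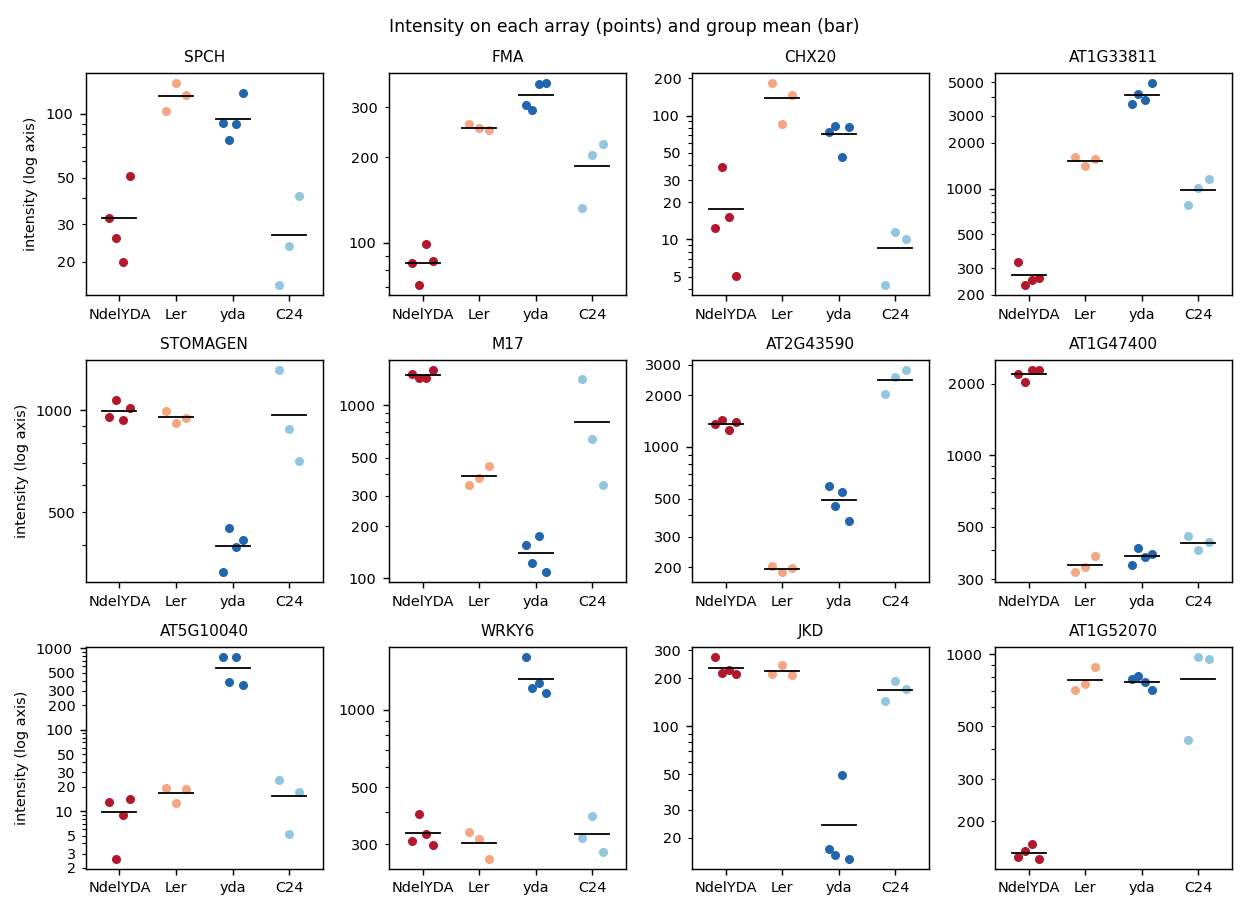
Intensity on each array (points, log axis) and group mean (bar) of 12 genes in NdelYDA, Ler, yda and C24. SPCH, FMA, CHX20 and AT1G33811 lie below Ler in NdelYDA and above C24 in yda, M17 and AT2G43590 do the opposite, AT1G47400 and AT1G52070 depart from control in NdelYDA alone, and STOMAGEN, AT5G10040, WRKY6 and JKD depart in yda alone.

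Several other genes were reversed in this direction. AT1G33811, a lipase of the GDSL family whose members act on surface lipids, was at 329.5, 232.6, 251.4 and 259.9 in NdelYDA seedlings, against 1614, 1395 and 1559 in Ler. The corresponding values were 3593, 4170.2, 3798 and 4908 in yda seedlings, against 784.7, 1006 and 1158 in C24. The groups of each pair were widely apart, and the difference of -4.50 (SE 0.19, adjusted p = 2.51e-10) split almost evenly into -2.44 in NdelYDA and 2.06 in yda. Of 41 tested GDSL lipases, 14 had a lower and 5 a higher difference (15.3% and 16.1% of all genes), with a median of -0.12. Only 3 were higher without NdelYDA replicate 2 or Ler replicate 2. Of the 41, 4 were reversed, all lower in NdelYDA and higher in yda, as were 2.23% of all genes. AT1G75880 (EXL1) differed by -4.20 (SE 0.46), although its NdelYDA signal of 6.7 to 8 and most of its C24 signal were near the floor. AT5G18430 differed by -2.66 (SE 0.27), with -0.69 in NdelYDA and 1.98 in yda. AT2G04570 rose in yda alone, by 2.05 (SE 0.10), against -0.20 (SE 0.10) in NdelYDA.

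AT3G62820, of the invertase and pectin methylesterase inhibitor family, was at 106.6, 124.6, 111.4 and 115.9 in NdelYDA seedlings, against 508.8, 433.5 and 486.2 in Ler. The pair for loss gave 1437, 1468, 1394 and 1437 in yda seedlings, against 289.2, 461.7 and 462.3 in C24. No arrays overlapped, the 2 controls did not differ by call (adjusted p = 0.158), and the difference was -3.73 (SE 0.18, adjusted p = 9.76e-10). EXPA16, an expansin that loosens cell walls, differed by -3.04 (SE 0.30), falling by 1.14 in NdelYDA and rising by 1.90 in yda. AT2G36690, a 2-oxoglutarate-dependent oxygenase, differed by -3.34 (SE 0.21). GH3.3, which conjugates auxin to amino acids, was at 320.5, 254.2, 324.1 and 301.3 in NdelYDA seedlings, against 514.6, 607.3 and 541.3 in Ler. Its levels were 1287, 1100.4, 1176 and 1220.5 in yda seedlings, against 293.7, 379.5 and 372.3 in C24. The GH3.3 difference was -2.59 (SE 0.15, adjusted p = 7.12e-09), the only reversal among 6 tested IAA and GH3 genes, whose median difference was -0.22.

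The opposite reversal, with more transcript in NdelYDA and less in yda, included many genes of seed maturation. Late embryogenesis abundant (LEA) proteins accumulate in maturing seeds and protect cells against drying. Of 26 tested LEA genes, 17 had a higher and 2 a lower difference, 13 were reversed in this direction against 3.67% of all genes, and the median difference was 1.77. In NdelYDA 15 rose and 4 fell (13.7% and 15.9% of all genes), and in yda 2 rose and 19 fell (18.6% and 23.5%). The LEA list was drawn up after values of several members had been seen, so it is not independent evidence of its direction.

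M17, a LEA gene of the late embryo, was at 1524, 1439.6, 1448 and 1600.1 in NdelYDA seedlings, against 348.2, 378.8 and 446.4 in Ler. Its values were 155.7, 122.2, 176.9 and 109.3 in yda seedlings, against 1430.5, 639.3 and 345.2 in C24. Every NdelYDA array exceeded every Ler array by more than 3-fold, and every yda array lay below every C24 array, but the C24 arrays ran over a 4-fold range. The M17 difference was 4.08 (SE 0.43, adjusted p = 2.73e-06). AT3G53040 differed by 3.21 (SE 0.38), AT4G21020 by 3.26 (SE 0.29) and LEA4-5 by 2.48 (SE 0.23), each a LEA gene with both mutants called in opposite directions. M10, another LEA gene of the late embryo, changed in NdelYDA alone. It was at 316.1, 262.3, 302.3 and 311.4 in NdelYDA seedlings, against 3.3, 3 and 7.7 in Ler, while it stood at 9, 5.5, 5.9 and 4.5 in yda seedlings, against 11.2, 6.8 and 8.2 in C24, a difference of 4.08 (SE 0.27, adjusted p = 3.28e-08). M10 passed the signal filter only through its NdelYDA arrays, and it counts among the tested LEA genes with a higher difference.

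The spread of the C24 control accompanied this group. Relative to the Ler mean, the median of all 26 tested LEA genes was 0.75, 0.77, 0.71 and 0.79 log2 units in the NdelYDA arrays, against -0.01, -0.09 and 0.10 in Ler. It was -0.34, -0.37, -0.19 and -0.32 in the yda arrays, against 1.06, 0.53 and 0.19 in C24. The C24 arrays thus ran over a wider range than any other group, and C24 replicate 1 lay above NdelYDA. Without C24 replicate 1, 13 of 24 tested LEA genes were reversed and the median difference was 1.55. With the mutants set against each other directly, NdelYDA minus yda, the median was 1.10, with 22 of 26 higher and 4 lower. With each mutant set against the other control, 5 LEA genes were reversed with NdelYDA higher and 2 with NdelYDA lower, against 13 and 1 with their own controls.

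**Figure D3:**
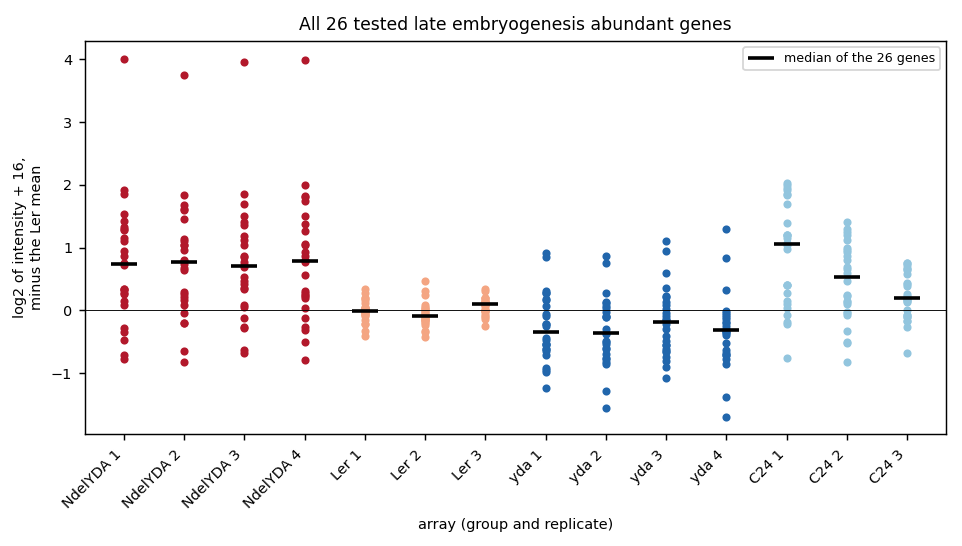
Log2(intensity + 16) minus the Ler mean (vertical axis) of all 26 tested LEA genes on each array, with their median as a black bar. Medians were 0.71 to 0.79 in NdelYDA, near 0 in Ler, -0.37 to -0.19 in yda and 0.19 to 1.06 in C24.

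Other seed genes differed in the same direction. Of 17 seed storage and oleosin loci listed, only 4 were tested. Of these, 3 had a higher difference (16.1% of all genes), and the median was 1.97. AT3G01570, of the oleosin family that coats oil bodies, was at 962.9, 833, 683.7 and 890.2 in NdelYDA seedlings, against 281.3, 261 and 315 in Ler. It measured 173.3, 162.6, 187.7 and 171.2 in yda seedlings, against 673.8, 495.4 and 298 in C24. No array of either mutant overlapped its control, and the difference was 2.84 (SE 0.27, adjusted p = 9.99e-07). The vicilin-like storage protein gene AT2G28490 and the seed maturation gene AT2G21820 were reversed by 4.11 (SE 0.48) and 3.86 (SE 0.38), whereas AT4G36700, of the cupin family, rose in NdelYDA alone (difference 2.81, SE 0.23). The 3 vacuolar processing enzymes tested are proteases of which the beta form processes seed storage proteins, and all were reversed in the same direction. The differences were 2.19 (SE 0.22) for BETA-VPE, 1.90 (SE 0.24) for DELTA-VPE and 0.92 (SE 0.08) for GAMMA-VPE, the form of vegetative organs. BETA-VPE was at 822.5, 873.8, 862.9 and 801.8 in NdelYDA seedlings, against 395, 425.9 and 397.3 in Ler, and at 298, 327.3, 268.7 and 270.1 in yda seedlings, against 978.5, 632.9 and 491.5 in C24. Its C24 arrays spread over a 2-fold range, and the lowest of them still exceeded every yda array.

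Of 25 loci listed for abscisic acid, cold and drought, only 6 were tested, all of which are also in the LEA list. Of these, 3 had a higher difference (16.1% of all genes), and the median was 0.75. LTI30, a dehydrin, was reversed by 0.76 (SE 0.12), and COR15B, induced by cold, fell in yda alone, with a difference of 0.90 (SE 0.23). In 2 tested genes of the list both mutants fell, and the differences were not called.

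Defence and wall genes with the same reversal included the largest difference among the genes named here. AT2G43590, of the chitinase family, was at 1362, 1426, 1254 and 1405 in NdelYDA seedlings, against 201.9, 187.8 and 198.2 in Ler. Its levels were 588.9, 455.1, 544.1 and 372.5 in yda seedlings, against 2042, 2559 and 2796 in C24. The mutants lay between the controls, since Ler was below C24 by 3.54 log2 units (adjusted p = 2.49e-11), and the difference was 5.0 (SE 0.18, adjusted p = 1.12e-10). Set against each other directly, NdelYDA exceeded yda by 1.46 (adjusted p = 3.53e-08). AT3G21380, a mannose-binding lectin, differed by 4.56 (SE 0.32), and PDF2.1, a plant defensin, by 4.15 (SE 0.39). The beta-glucosidases BGLU19 and BGLU28 differed by 3.57 (SE 0.32) and 2.85 (SE 0.16). For EXPA8, an expansin, the reversal was uneven, with 0.48 in NdelYDA and -2.30 in yda. It was at 2020.3, 1872, 1979 and 2279 in NdelYDA seedlings, against 1451, 1519 and 1387 in Ler, and at 203.1, 300.7, 242.4 and 272 in yda seedlings, against 1146, 1628 and 1186 in C24, so the yda arrays stood apart from all others.

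Genes of the hypoxia response rose in yda, with smaller changes in NdelYDA. The list holds core genes induced by low oxygen, when respiration stalls and fermentation takes over. Of 19 tested members, 13 had a lower and 3 a higher difference (15.3% and 16.1% of all genes), with a median of -1.48. In yda 13 rose and 1 fell (18.6% and 23.5% of all genes), with a median change of 1.49. In NdelYDA 8 rose and 3 fell (13.7% and 15.9% of all genes), with a median of 0.29. In all, 7 were called higher in yda alone, as were 6.52% of all probe sets, and 2 were reversed with NdelYDA lower (2.23% of all genes). Only 1 was so reversed without any single Ler array or without NdelYDA replicates 2 or 3.

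AT5G10040, a small hypoxia-induced protein of unknown function, was at 13, 2.6, 9 and 14.2 in NdelYDA seedlings, against 19.2, 12.6 and 18.7 in Ler. It reached 772.8, 381.9, 780.3 and 353.6 in yda seedlings, against 23.8, 5.2 and 17 in C24, with yda replicates 1 and 3 above replicates 2 and 4. All 10 arrays outside yda were at or below 23.8, so the gene passed the signal filter only through yda. The difference was -4.56 (SE 0.42, adjusted p = 9.78e-07). AT1G33055, likewise induced by low oxygen, was at 2183, 1733, 2170.5 and 1542 in yda seedlings, against 128.7, 258.1 and 210.2 in C24. NdelYDA overlapped its control, with 197.8, 269.3, 228.7 and 402.5 in NdelYDA seedlings, against 215.7, 314 and 293.7 in Ler, and the difference was -3.23 (SE 0.32). AT2G17850, of the rhodanese family, and AT3G27220, of the kelch repeat family, showed the same pattern with differences of -2.93 (SE 0.32) and -2.85 (SE 0.25). AT5G66985 was reversed, with -1.75 in NdelYDA and 1.54 in yda. AT4G33560, of a wound-responsive family, rose in both mutants but by 1.16 in NdelYDA and 4.09 in yda. It too passed the signal filter only through its yda arrays. CML38, a calcium sensor of hypoxia and wounding, went the other way, with a difference of 1.02 (SE 0.30). The call was lost without Ler replicate 1, the sign depended on the controls, and NdelYDA minus yda was -1.56 (adjusted p = 5.01e-06).

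Cytosolic ribosomal protein genes rose in yda, mostly by small amounts, and fewer rose in NdelYDA. Of 119 tested, 66 had a called difference and each of these was lower, against 15.3% of all genes, and the median was -0.27. No member was called higher by limma, nor at an unadjusted p under 0.05, where 87 were lower. In yda 104 rose (18.6% of all genes), with a median of 0.38 and a range of -0.14 to 1.20. In NdelYDA 22 rose (13.7% of all genes), with a median of 0.07. In the difference, 60 were called through a rise in yda alone (6.52% of all probe sets) and none was reversed. With arrays scaled to the same median, 88 were lower, 77 of them through yda alone. Without C24 replicate 1 these counts were 78 and 65, and without C24 replicate 3 they were 56 and 50. AT5G22440, a protein of the large subunit, was at 2426, 2333, 2509 and 2502 in yda seedlings, against 1609, 1617 and 1625 in C24. NdelYDA arrays lay within the Ler range or just beside it, with 1875, 1788, 1792 and 1768 in NdelYDA seedlings, against 1859.7, 1743 and 1964 in Ler. The difference was -0.63 (SE 0.08, adjusted p = 1.65e-05). AT5G39850, of the small subunit, rose in both, by 0.37 in NdelYDA and 1.20 in yda. The yda arrays had the lowest GAPDH 3′ to 5′ ratios, and the part of this in the shift was not tested.

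Enzymes of the tricarboxylic acid cycle and the respiratory chain differed in the same sense. Of 18 tested, 12 had a lower and 1 a higher difference (15.3% and 16.1% of all genes), with a median of -0.54. Of the 18, 4 were reversed with NdelYDA lower (2.23% of all genes) while 5 were higher in yda alone (6.52% of all probe sets). SDH2-1, the iron-sulphur subunit of succinate dehydrogenase, was at 1661, 1548, 1671 and 1601 in NdelYDA seedlings, against 2273, 2098 and 2246 in Ler. Its values were 3052, 3025, 2969.7 and 3236 in yda seedlings, against 2284, 2332 and 2339 in C24. Both changes were under 1.5-fold, yet no arrays overlapped within a pair, and the difference was -0.84 (SE 0.08, adjusted p = 7.28e-07). IDH-V, a subunit of isocitrate dehydrogenase, rose in yda by 0.58 (SE 0.07), and its change of -0.19 in NdelYDA was not called (adjusted p = 0.0513). ICL, the isocitrate lyase of the glyoxylate cycle in germinating seeds, was the member with a higher difference, 1.12 (SE 0.25), and it fell in yda alone. NDB2, an alternative NADH dehydrogenase, differed by -1.16 (SE 0.23), but NdelYDA minus yda was 0.084 (adjusted p = 0.657).

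**Figure D4:**
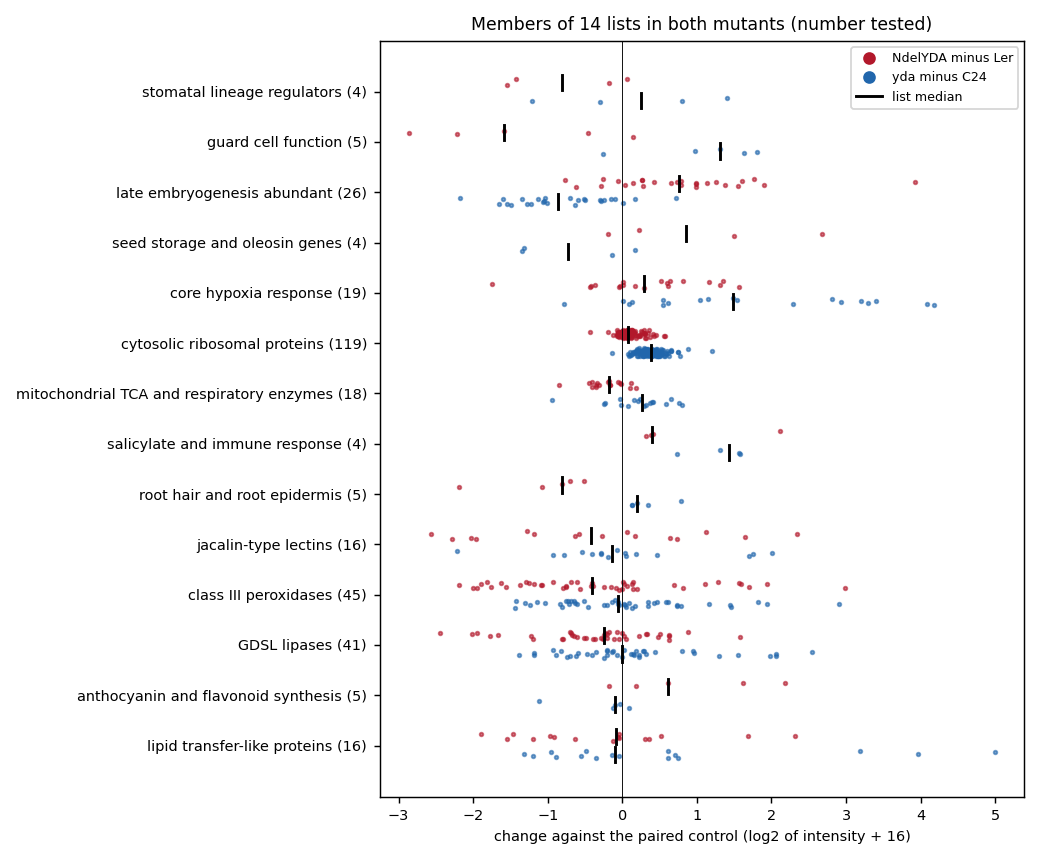
Change of each tested member of 14 gene lists (points; number tested in brackets) in NdelYDA against Ler (upper row of each list, red) and in yda against C24 (lower row, blue), in log2(intensity + 16), with the list median as a black line. Guard cell medians lie on opposite sides of 0, as do LEA medians (0.76 in NdelYDA and -0.86 in yda), while hypoxia and ribosomal protein genes lie to the right mainly in yda and root hair genes to the left in NdelYDA.

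Immune and senescence regulators rose more in yda than in NdelYDA in 3 of 4 cases. Only 4 of the 21 loci of the salicylate list were tested. In yda all 4 rose, and in NdelYDA 2 did (18.6% and 13.7% of all genes). The difference was lower in 3 and higher in 1 (15.3% and 16.1% of all genes), and the median was -0.67. WRKY6, a transcription factor of senescence and defence, was at 1600.3, 1209, 1273 and 1162 in yda seedlings, against 317.4, 386.6 and 281.1 in C24. In NdelYDA the arrays overlapped Ler, with 308.4, 394.7, 329 and 299 in NdelYDA seedlings, against 335, 315.9 and 264.3 in Ler. The WRKY6 difference was -1.83 (SE 0.19, adjusted p = 2.23e-06), the largest among 6 tested WRKY factors. Of the 6, 3 had a lower and 2 a higher difference (15.3% and 16.1% of all genes). SAG101, a lipase-like partner of EDS1 in immunity, rose in yda by 1.58 (SE 0.16) and changed by 0.41 in NdelYDA, which was not called (adjusted p = 0.0575). WRKY22 differed by -0.99 (SE 0.21), also through yda alone. BIK1, a receptor-associated kinase, differed by -0.35 (SE 0.11), a call lost when any 1 of 6 arrays was left out (NdelYDA replicates 1 and 3, C24 replicates 2 and 3, Ler replicates 2 and 3). WRKY53 rose in both mutants and had a difference of 0.55 (SE 0.20, adjusted p = 0.0403). That call was lost under 15 of 25 alternatives, among them leaving out any NdelYDA array, yda replicates 1 or 3, C24 replicates 1 or 2, or Ler replicates 1 or 2, and NdelYDA minus yda was -0.76, the opposite sign.

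Beyond these lists, AT2G19980, of the PR-1-like secreted proteins, was at 334, 238.7, 301.9 and 297.8 in yda seedlings, against 21.9, 22 and 20.9 in C24. NdelYDA and Ler arrays lay between 2.6 and 4.5, near the floor of detection, and the difference was -3.03 (SE 0.26). This gene passed the signal filter only through its yda arrays. CYP71B23, a cytochrome P450, rose in yda alone by 2.14 (SE 0.15), and its difference of -2.13 was the largest of the list of 15 tested P450 genes. The list does not hold AT3G44970, a P450 gene named below with a larger difference of the opposite sign. In that list 5 differences were higher and 3 lower (16.1% and 15.3% of all genes). Among the 15, 5 genes were higher in NdelYDA alone, as were 3.78% of all probe sets.

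Transcripts that fell in yda alone included several regulators. JKD, a zinc finger factor of root tissue patterning, was at 16.9, 15.6, 49.3 and 14.8 in yda seedlings, against 144.7, 192.4 and 171.4 in C24. Replicate 3 was the highest yda array, yet each yda array lay below each C24 array. NdelYDA overlapped Ler, with 271.9, 216.4, 226.3 and 213.4 in NdelYDA seedlings, against 214.3, 242.9 and 210.2 in Ler, and the difference was 2.33 (SE 0.30, adjusted p = 2.29e-05). The related bZIP factors BZIP61 and BZIP34 fell by 1.98 (SE 0.12) and 2.24 (SE 0.23) in yda, and their changes of 0.09 and 0.18 in NdelYDA were not called. Of 15 tested bZIP factors, 5 had a higher and 2 a lower difference (16.1% and 15.3% of all genes). Among the 15, 4 fell in yda alone, as did 7.79% of all probe sets. AT4G32330, of a family of microtubule-binding proteins, was at 145.5, 112.2, 157.7 and 116.1 in yda seedlings, against 635.1, 618.1 and 677.6 in C24. The gain mutant gave 626.8, 623.8, 691.1 and 600.1 in NdelYDA seedlings, against 672.9, 687.7 and 718.4 in Ler, with overlap, and the difference was 2.04 (SE 0.14). AT5G48490, a lipid transfer protein related to DIR1 of systemic immunity, differed by 1.97 (SE 0.17).

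Single chaperone and chlorophyll genes also fell in yda alone. Fes1B, a nucleotide exchange factor of heat shock proteins, and Cpn60beta4, a chloroplast chaperonin subunit, differed by 1.11 (SE 0.14) and 1.13 (SE 0.18). In yda, however, 6 of 16 tested heat shock and chaperone genes rose and 3 fell (18.6% and 23.5% of all genes), with a median change of 0.24. Of these 16, 3 were higher and 5 lower in the difference (16.1% and 15.3% of all genes). Only 3 were lower without any one of yda replicates 2 or 3, NdelYDA replicate 3, C24 replicate 3 or Ler replicate 1. CHLM and CHLI2, enzymes of chlorophyll synthesis, differed by 0.43 (SE 0.07) and 0.55 (SE 0.10). For CHLI2, NdelYDA minus yda was 0.082 (adjusted p = 0.32). In yda 3 of 12 tetrapyrrole genes rose and 4 fell (18.6% and 23.5% of all genes). The tetrapyrrole list had 4 higher and 1 lower of 12 (16.1% and 15.3% of all genes), and 3 of the 4 fell in yda alone. Only 2 were higher without C24 replicate 2, without Ler replicate 1 or with arrays scaled to the same median. Plastid-encoded genes, by contrast, had few calls. Among 43 tested photosynthesis subunits none had a called difference by limma, and none was at an unadjusted p under 0.05, with a median of -0.33. Among 21 genes of plastid gene expression 2 were higher, with a median of -0.31. Without C24 replicate 1 these medians were 0.11 and 0.09, so their sign rests on that array. The 2 calls became 1 without any single C24 array and 0 without Ler replicate 3 or with arrays scaled to the same median.

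Root-associated genes fell in NdelYDA, mostly with no called change in yda. Of 23 loci listed for root hairs and root epidermis, only 5 were tested. All 5 fell in NdelYDA and had a lower difference (15.9% and 15.3% of all genes), with a median of -1.05. Of these, 4 changed in NdelYDA alone, as did 3.76% of all probe sets in this direction, and AT1G34510 was reversed. Without C24 replicate 3, 2 were reversed and 3 changed in NdelYDA alone. HRGP1, an extensin-type wall protein whose probe set may also read related genes, was at 1012, 1007, 1026 and 1009 in NdelYDA seedlings, against 1906, 1585 and 1866 in Ler. It was at 1856, 2492, 2036 and 1907 in yda seedlings, against 1405, 2044 and 1986 in C24, with overlap. The difference was -1.01 (SE 0.17, adjusted p = 2.75e-04). EXPA7, an expansin of root hairs, fell by 0.71 (SE 0.17) in NdelYDA, against an uncalled 0.35 (SE 0.17) in yda. AT1G34510, a class III peroxidase, was at 3.5, 3.6, 3.9 and 4.8 in NdelYDA seedlings, against 76.3, 53.3 and 101 in Ler. The other pair read 252.5, 329.6, 295.7 and 295.9 in yda seedlings, against 105.8, 219.3 and 181 in C24, a rise of 0.79. The NdelYDA arrays were at the floor of detection, and the difference was -2.98 (SE 0.30).

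Class III peroxidases, which cross-link wall polymers, changed in both directions in each mutant. Of 45 tested, 15 had a lower and 7 a higher difference (15.3% and 16.1% of all genes), and the median was -0.27. In NdelYDA 22 fell and 9 rose (15.9% and 13.7% of all genes), and in yda 17 fell and 14 rose (23.5% and 18.6%). AT3G49960 fell in NdelYDA alone, by 1.95 (SE 0.25), as did AT1G30870, by 1.08 (SE 0.15). PRX52, of lignin formation, rose in both but more in NdelYDA, by 2.98 against 1.17 in yda. AT1G34510 and AT1G30870 belong also to the root list.

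Lectins of the jacalin type, which bind sugars, mostly had a lower difference. Of 16 tested, 10 had a lower and 4 a higher difference (15.3% and 16.1% of all genes), with a median of -0.65. Of the 16, 6 were lower in NdelYDA alone, as were 3.76% of all probe sets. The largest difference of the list was a higher one, the 4.56 of AT3G21380 named above. In all, 2 members were reversed with NdelYDA higher, as were 3.67% of all genes. This list too was written after values had been seen. The genes AT1G52050, AT1G52060 and AT1G52070 have neighbouring locus numbers. AT1G52070 was at 141.4, 150.2, 160.1 and 139.5 in NdelYDA seedlings, against 710.3, 746.7 and 885.6 in Ler. It was at 786.2, 812.2, 761.3 and 705.9 in yda seedlings, against 438.9, 971.4 and 955.4 in C24. NdelYDA stood apart from all 10 other arrays, and the difference was -2.32 (SE 0.27, adjusted p = 9.12e-06). AT1G52060 and AT1G52050 differed by -2.60 (SE 0.28) and -2.21 (SE 0.23), but both were higher in Ler than in C24, by 1.3 and 1.71, and NdelYDA minus yda was -1.3 and -0.49.

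For hemb2 and AT5G47980 the sign of the difference depended on the controls used. hemb2, an aminolevulinate dehydratase gene of tetrapyrrole synthesis, was at 135, 110.4, 117.9 and 129.4 in NdelYDA seedlings, against 1048, 1093 and 1026 in Ler. It was at 56.8, 91.7, 104.5 and 79.3 in yda seedlings, against 69.2, 72.1 and 94.8 in C24, so NdelYDA lay just above the arrays of the other pair and Ler alone stood far apart. AT5G47980, an acyltransferase gene of the thalianol cluster for root triterpenes, was at 529.9, 521.9, 492.6 and 557.5 in NdelYDA seedlings, against 2072, 2184 and 2183 in Ler. Its yda and C24 signals of 3.9 to 26.9 were at the floor, beside a control difference, Ler minus C24, of 6.28. NdelYDA minus yda was 0.51 for hemb2 and 4.35 for AT5G47980, in both cases the opposite sign to the differences of -3.00 and -1.93. That direct comparison includes any contrast between the backgrounds.

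The genes named for higher transcript in NdelYDA alone came from several families. AT1G47400, an IRON MAN peptide that promotes iron uptake, was at 2212, 2043, 2285 and 2281 in NdelYDA seedlings, against 322.3, 336.6 and 374.5 in Ler. The levels were 345.6, 407.8, 372.4 and 382.1 in yda seedlings, against 454.8, 398.9 and 430.2 in C24. Every NdelYDA array exceeded every other array by more than 4-fold, and the difference was 2.80 (SE 0.11, adjusted p = 1.74e-10). SAG29, the sugar transporter SWEET15, was at 1066, 1248, 1278 and 1319.7 in NdelYDA seedlings, against 191.8, 175.4 and 175.7 in Ler. It was at 248.8, 206.7, 271.1 and 219.8 in yda seedlings, against 269.7, 273.8 and 272.1 in C24, and the difference was 2.85 (SE 0.14). AT3G44970, a cytochrome P450 gene, differed by 3.09 (SE 0.20), and LCR67, the defensin PDF1.1, by 2.40 (SE 0.28). Outside NdelYDA, LCR67 exceeded the array's 30th percentile only in yda replicate 1 and C24 replicate 1. It would not have passed the signal filter without its NdelYDA arrays.

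Of 25 anthocyanin and flavonoid loci listed, only 5 were tested. Of these, 2 had a higher difference (16.1% of all genes), both through NdelYDA alone (3.78% of all probe sets), and the median was 0.94. Without C24 replicate 1, C24 replicate 3 or yda replicate 1, 4 of the 5 were called, and without NdelYDA replicates 1, 3 or 4 only 1 was. DFR, which commits flavonoids to anthocyanin, was at 418.7, 397.5, 439.7 and 422.1 in NdelYDA seedlings, against 137.4, 134.8 and 108.8 in Ler. The yda pair overlapped, with 196.8, 196.2, 235.3 and 176.1 in yda seedlings, against 190.4, 206.2 and 166.3 in C24. The difference was 1.52 (SE 0.16, adjusted p = 2.60e-06). AT4G14090, an anthocyanin glucosyltransferase, differed by 2.30 (SE 0.42) and was at 57.2 to 118.5 in NdelYDA, against 5.8 to 9.6 in Ler. It passed the signal filter only through its NdelYDA arrays, and it is 1 of the 2 genes with a higher difference.

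Unequal change in a shared direction was clearest for lipid transfer-like proteins, small secreted proteins of the wall and of defence priming. Of 16 tested, 9 had a lower and 2 a higher difference (15.3% and 16.1% of all genes). AT5G48490, the lipid transfer protein named above with a higher difference, is not in this list. Of the 16, 7 moved the same way in both mutants by unequal amounts, as did 4.01% of all probe sets. AT4G12500 was at 769.1, 651.8, 706.2 and 683.5 in NdelYDA seedlings, against 117.6, 116.2 and 152 in Ler. It reached 2995, 2454, 3127 and 2034 in yda seedlings, against 44.4, 66.2 and 96.6 in C24. Both mutants lay above their controls on every array, and the difference was -2.68 (SE 0.25, adjusted p = 1.07e-06). AT4G22470 and AT4G12490 differed by -2.67 (SE 0.22) and -2.27 (SE 0.25), but for AT4G12490 NdelYDA minus yda was -0.22 (adjusted p = 0.277). In the other direction, XTH21, a xyloglucan endotransglucosylase of cell walls, fell by 2.61 in NdelYDA and 0.89 in yda. GSTU26, a glutathione transferase, fell by 2.54 in NdelYDA and 0.68 in yda. In both the difference was called, at adjusted p = 7.99e-04 for XTH21 and 1.83e-06 for GSTU26.

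Among the remaining lists with a higher share of calls or a median apart from that of all genes, subtilases, secreted proteases, had 4 lower differences of 10 tested and a median of -0.57. SBT1.3 among them fell in NdelYDA alone, with a difference of -1.06 (SE 0.14). Of 9 GH9 endoglucanases 3 were higher and 2 lower, and GH9C2 was reversed by 1.59 (SE 0.12). Of 8 U-box ubiquitin ligases 3 were higher, with PUB25 reversed by 1.5 (SE 0.15), although NdelYDA minus yda was 0.10 (adjusted p = 0.428). Higher against lower differences numbered 4 and 2 of 9 chitinases, 3 and 0 of 10 thionins and defensins (6 and 0 at an unadjusted p under 0.05), 4 and 0 of 9 tetraspanins, and 5 and 2 of 14 beta-glucosidases. They numbered 2 and 4 of 8 calmodulin-like proteins, 3 and 2 of 8 xyloglucan endotransglucosylases, 3 and 3 of 12 glutathione transferases, and 3 and 3 of 12 cellulose synthase-like and xylan genes. For SWEET transporters they were 4 and 2 of 15, for RALF-like peptides 1 and 2 of 7, for IQ-domain proteins 4 and 1 of 10, for vacuolar processing and V-ATPase genes 3 and 1 of 7, and for phenolic glycosylation genes 3 and 1 of 10. Among all genes 31.4% had a called difference (16.1% higher, 15.3% lower). Several of these lists lay near that share, such as U-box ubiquitin ligases (37.5%) and thionins and defensins (30%). Single arrays moved some of these counts. The RALF-like list had no call without C24 replicate 3, and 0 higher and 1 lower without C24 replicate 2. Counts of 1 or 2 in other lists often changed by 1 when an array was left out. Tetraspanins had 1 higher without C24 replicate 1 and 2 without yda replicate 4, NdelYDA replicates 1 or 3, or Ler replicate 2. Without C24 replicate 1, 5 thionins and defensins were higher, as were 5 phenolic glycosylation genes without C24 replicates 1 or 3 or yda replicate 1.

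The remaining 15 lists had no share of calls at least 10 points above the 31.4% of all genes. None had a median difference of 0.2 either way, and several had a lower share than all genes. Higher against lower differences were 9 and 5 of 40 UDP-glycosyltransferases, 2 and 4 of 16 expansins, 3 and 4 of 20 serine carboxypeptidase-like proteins, 3 and 1 of 19 cell cycle genes, 1 and 2 of 17 exocyst and ESCRT genes, and 2 and 3 of 17 trichome birefringence-like genes. They were 1 and 2 of 11 histones, 2 and 0 of 10 nuclear photosynthesis genes, 2 and 1 of 10 MADS box factors, 0 and 2 of 10 autophagy genes, 1 and 1 of 7 tubulins, 1 and 1 of 5 glucosinolate genes and 0 and 1 of 12 RNA polymerase subunits. Neither 13 LSM and splicing factors nor 6 glutamate receptor-like genes had a limma call, with 2 and 0 of them at an unadjusted p under 0.05.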

How the data were processed

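Total RNA of seedlings was measured on 14 1-colour arrays of 22810 probe sets, 64 of them array controls. The deposited values are linear signal intensities, 1 per probe set, and the values themselves show that the arrays had been scaled before deposit (array medians lay within 0.144 log2 units). The software behind them is not given in the sources used here. Array data have no read depth, so the number of arrays limits the precision.

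Intensities were taken as log2(intensity + 16), and probe sets above the 30th percentile of an array on 3 or more arrays were tested. A model of 4 group means was fitted across the 14 arrays (limma 3.58.1, R 4.3.3, eBayes with trend), two-sided, with Benjamini-Hochberg adjustment over 17210 probe sets and calls at adjusted p under 0.05. The contrast was (NdelYDA minus Ler) minus (yda minus C24), with each mutant contrast from the same fit. SE is that of the contrast.

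Probe sets with 1 gene (13513) were named through the platform table, 503 had several genes and 8730 were unnamed, and 13436 matched the TAIR10.1 gene table. For lists, each of 9416 genes had 1 probe set.

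The genes and the 68 lists were chosen with earlier results of these data known, and lists were written from memory and symbol patterns without a curated source. The LEA and jacalin lists were added after values had been seen. Many listed loci had no named probe set, so counts cover only the tested members. Of the lists, 54 had at least 4 tested genes; 39 with a share of calls at least 10 points above that of all genes, or a median difference of at least 0.2 either way, are described and 15 are given as counts. Named genes were drawn by rule from the largest called differences: up to 10 per reversed direction, 6 per single-mutant class, 3 per class of unequal change and 4 per list. The text names a selection of these genes.

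On simulated data for the effect difference (17210 probe sets, 200 changed), 98% of 2-fold reversals and 92% of 1.5-fold reversals were recovered, 86% and 52% in the right class. A 2-fold change in NdelYDA alone was recovered in 64% and a 1.5-fold one in 30%, and 4.7% of 149 calls were false. A simulated reversal moved both mutants by the stated fold, so its difference was larger than that of a change in NdelYDA alone. The simulation had no contrast between the controls, and far fewer probe sets changed than the 5753 called here. Its rates therefore do not carry over to the real arrays. Same-numbered samples did not deviate together (19 pairs, r -0.163 to 0.160, 2 over 0.1), so the main fit has no replicate block. Alternatives covered the pseudocount, filter, scaling, controls, Ler-labelled NdelYDA samples, replicate block and single arrays.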

Additional observations from a re-analysis of the deposited data

Results flagged for a closer look

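The largest flagged result was the interaction itself: the response to NdelYDA and to yda differed, by limma's test of the difference, at 3034 probe sets with a higher and 2719 with a lower difference. Both controls enter this test, and the control contrast was also called at 2765 of these 5753 probe sets.

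Among 178 groups of 4 arrays examined for the genes named here, 2 held an array far from the other 3. XTH21 was at 51.7 in yda replicate 1, against 33.7 to 36.5 in the other yda arrays. JKD was at 49.3 in yda replicate 3, against 14.8 to 16.9 in the others. Chance flags about 1 in 20 groups, and the cause of these values was not tested.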

How the results depend on the processing

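Of 89 genes named, 80 kept the direction and the call of their difference in each of 25 alternatives in which they were tested. The exceptions were WRKY53, BIK1, CML38, PUB25, AT4G12490, CHLI2, NDB2, hemb2 and AT5G47980. The named genes were drawn mostly from the largest called differences of these same arrays, so their stability does not describe that of all calls. With NdelYDA set directly against yda, the differences of AT5G47980 (4.35), hemb2 (0.51), CML38 (-1.56), NDB2 (0.084) and WRKY53 (-0.76) turned sign. That comparison called 10207 differences (5776 higher, 4431 lower), and with each mutant set against the other control 3830 were reversed (1516 with NdelYDA lower, 2314 with NdelYDA higher). Which control suits yda is not given by the labels, but yda lay nearer C24 at 60 of the 62 probe sets that separated the controls most. Setting each mutant against the other control brings the Ler minus C24 contrast into its change.

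With a fold of at least 2 required, 1321 differences were called (787 higher, 534 lower), 1045 NdelYDA changes and 1109 yda changes. Of these 80 were reversed (27 with NdelYDA lower, 53 with NdelYDA higher) and 747 changed by at least 2-fold in one mutant only. The 747 were 181 higher and 171 lower in NdelYDA, and 155 higher and 240 lower in yda. This class also holds probe sets whose other mutant was called with a change under 2-fold. AT5G18430, reversed in the main counts, falls in it as higher in yda only. With only the NdelYDA samples labelled Ler, 672 were reversed (238 with NdelYDA lower, 434 with NdelYDA higher), in a fit with fewer arrays.

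Leaving out 1 array at a time gave 5046 to 5836 differences (2709 to 3119 higher, 2337 to 2723 lower), 4479 to 6021 NdelYDA and 6684 to 7343 yda changes. It gave 832 to 1097 reversals (288 to 410 with NdelYDA lower, 541 to 700 with NdelYDA higher). Changes in one mutant only numbered 3440 to 3818 (545 to 747 higher and 516 to 708 lower in NdelYDA, 977 to 1123 higher and 1208 to 1359 lower in yda). The replicate number as a block, which does not pair these samples, gave 5587 differences, 5110 NdelYDA and 7171 yda changes, 921 reversals and 3741 changes in one mutant only. Scaling each array to the same median gave 2604 higher and 3304 lower differences, and quantile normalization 5816 in all. Signals near the array's 30th percentile or below limit the size of change that can be read.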
